A study of Saccharomyces cerevisiae with 5 samples.

Results

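The genes described here are the 58 *Kluyveromyces lactis* genes on the yeast artificial chromosome of *Saccharomyces cerevisiae* strain YAC1, chosen as all genes of that strain's insert table, out of 288 genes in the insert tables of 5 strains. Their identifiers start with KLLA0F, 25 are listed as forward (F) and 33 as reverse (R), and no gene names or functions come with them. The reference is the 4580 host genes of the same library whose identifiers do not start with YB or YJ, out of 5264. YAC1 is 1 strain with 1 insert and gave 1 library. A yeast artificial chromosome is a vector that a yeast cell keeps and copies as an extra chromosome, and *K. lactis* is a budding yeast related to the host. The cells were grown on dextrose without added tryptophan or uracil, and their chromatin was cut with micrococcal nuclease after zymolyase treatment. DNA of single-nucleosome size was purified on a gel and sequenced on an Illumina instrument. Host and insert DNA thus come from the same cells and the same digestion. Nothing in the comparison has a replicate, so every difference between insert and host is a description of this library, without a test. The other strains are YAC2 and YAC3, also with *K. lactis* DNA, and YAC6 and YAC7, with *Debaryomyces hansenii* DNA.

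A nucleosome is a stretch of DNA wrapped around a histone octamer, and micrococcal nuclease cuts the DNA between nucleosomes, so that sequenced mononucleosomal DNA shows where they sit. In budding yeasts a typical promoter has a nucleosome-depleted region just upstream of the start of transcription, kept open by stiff poly(dA:dT) tracts, by general regulatory factors and by the remodeller RSC. It is bordered by the -1 nucleosome upstream and the +1 nucleosome downstream. From the +1 nucleosome a regularly spaced array runs into the gene, set by spacing remodellers such as ISW1 and CHD1. A foreign insert carries the promoter sequences of its own species but meets the host's factors.

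The signal of each gene was divided by the gene's own mean, because the unit of the insert table is 1.77 times that of the host table, and was smoothed with a Gaussian of SD 20 bp. A level of 1 is therefore the mean of that gene from -500 to +1000 bp of its listed start. The lowest level from -250 to +50 bp gives the depth of the promoter, where a lower level means deeper depletion. The depleted region is the run of bins under 0.5 around that lowest bin. The -1 and +1 nucleosomes are the nearest peaks on either side of at least 0.8 and at most 250 bp away. KLLA0F10857g, the last gene in identifier order, held 0 in 114 of its 151 bins with a mean signal of 0.0959, against a median of 1.04 over the insert genes, and was left out of all summaries. This leaves 57 insert genes, 24 forward and 33 reverse, and 4575 host genes. Of the host genes set aside by identifier, a depleted region was found at 52.7% of the 317 YJ starts and at 99.2% of the 365 YB starts, where the median +1 position was 90 bp.

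Promoters of the insert were open but shallower than those of the host. The lowest level had a median of 0.157 in the insert (interquartile range 0.0395 to 0.312, n = 57) and 0.0689 in the host (0.0338 to 0.135, n = 4575). A lowest bin at the end of the window may miss a deeper level outside it. With only genes whose lowest bin lay inside the window, the medians were 0.138 and 0.0670. A depleted region was present in 54 of 57 insert genes and in 98.6% of host genes. That small difference turned with the settings: with smoothing of 10 bp SD the shares were 100% and 99.02%, and with a threshold of 0.6 they were 100% and 99.3%. A level under 0.2 was reached by 32 of 57 insert genes, against 86.1% of host genes. At the deep end the insert came closer to the host, with 17 of 57 genes under 0.05 against 38.2% of host genes. At still lower levels, up to 0.0295, the share of insert genes was somewhat above that of host genes. The insert thus held deep promoters together with a large group of shallow ones, and its spread was wider than that of the host. All 14 host chromosomes in the comparison had a lower median than the insert, between 0.0482 and 0.0771. How well 1 value of a gene is determined can be read from host genes that were measured again in the other 4 strains: the lowest level of a gene differed between YAC1 and another library by a median of 0.0211 to 0.0615, depending on the library.

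The depleted region of insert genes ended further upstream of the listed start than that of host genes. Its downstream edge had a median of -30 bp in the insert (interquartile range -47.5 to -10 bp, n = 54) and 0 bp in the host (-10 to 10 bp, n = 4509). An edge at -20 bp or further upstream was found in 39 of 54 insert genes, against 24.2% of host genes. The upstream edge had a median of -145 bp in the insert and -140 bp in the host over all genes. By class it was -140 bp in both among genes of the divergent pairs described later. Among all other genes it was -210 bp in the insert against -150 bp in the host. Those pairs are the divergent neighbours with matching signal, 15 of 20 in the insert and 857 of 1081 in the host. Here and below, the other genes thus include divergent neighbours without a match. The median width was 135 bp in the insert (interquartile range 90 to 255 bp) and 160 bp in the host (120 to 220 bp). Both tails of the width were fuller in the insert. A width under 100 bp occurred in 15 of 54 insert genes, against 10.8% of host genes, and a width of 200 bp or more in 21 of 54, against 31.7%. The difference in median width did not hold for both classes. It was -30 bp among genes of the divergent pairs (120 bp in the insert, 150 bp in the host). Among all other genes it was 30 bp (190 and 160 bp). In the insert, regions of the divergent neighbours without a match were 110 to 430 bp wide, most of them 200 bp or more. The difference for genes without any divergent neighbour was not computed. The downstream edge lay upstream of the host's in both classes, by 30 and 20 bp.

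Insert genes had their +1 nucleosome nearer to the listed start than host genes, while the -1 nucleosome had the same median position in both. The +1 peak was found in 46 of 57 insert genes and in 81.4% of host genes, with a median position of 60 bp (interquartile range 50 to 70 bp) against 80 bp (70 to 90 bp). The median was 80 bp on each of the 14 host chromosomes. The -1 peak was found in 43 of 57 insert genes and in 74.3% of host genes, and its median position was -210 bp in both. A +1 peak at or upstream of the start occurred in 6 of 46 insert genes, against 3.17% of host genes, and all 6 had their lowest bin at -250 bp. Both peaks were found in 35 of 57 insert genes, against 62.1% of host genes, and the distance between them had a median of 270 bp over 35 insert genes and 290 bp over 2840 host genes. By class that distance was shorter than in the host among divergent pairs (270 against 290 bp) and longer among the other genes (305 against 290 bp). Position of the +1 peak is among the most repeatable measures, since the same host gene moved by a median of 0 to 10 bp between YAC1 and another library. Where the start coordinates of the insert and of the host came from is not stated in the labels. A systematic difference between those annotations cannot be told apart from a shift of the +1 nucleosome or of the downstream edge of the depleted region.

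**Figure D1:**
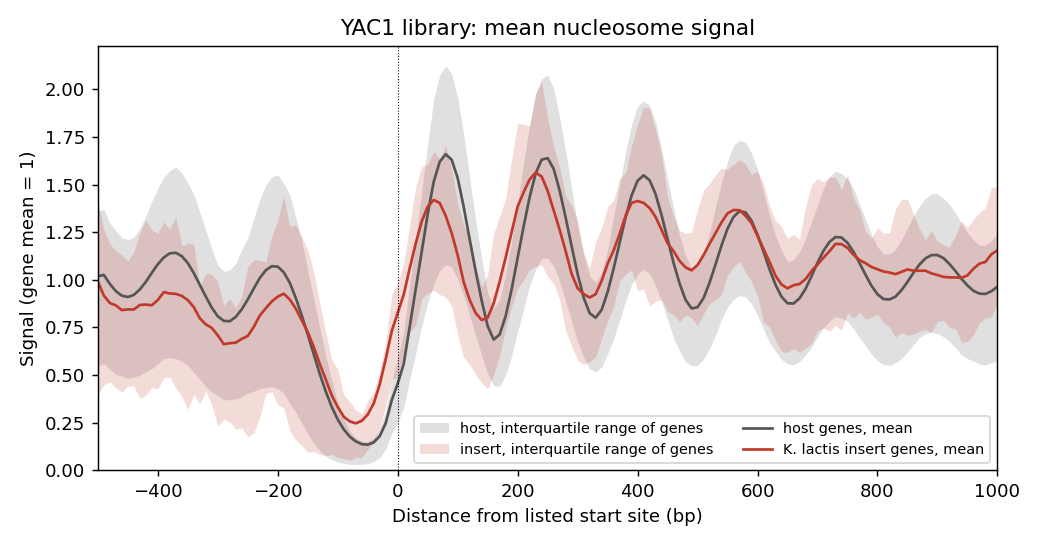
Mean signal, before smoothing, of 57 insert genes (red) and 4575 host genes (grey) of the YAC1 library by distance from the listed start (x axis, bp), each gene scaled to its own mean (y axis); bands are interquartile ranges over genes. The insert trough is shallower, its +1 and +2 peaks lie to the left of the host's, and both curves reach their +3 peak near 410 bp.

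In the mean profile the insert and host arrays started out of step and came back into step within the gene. Smoothed mean levels of the insert peaked at 60, 230, 410, 560 and 740 bp, and those of the host at 80, 250, 410, 570 and 730 bp. The insert was thus 20 bp upstream of the host at the +1 and +2 nucleosomes and level with it at the +3 nucleosome. The +1 peak reached 1.33 in the insert and 1.53 in the host, and the +2 peak 1.48 and 1.53. In the insert the +2 peak was the higher of the pair, and in the host the +1 and +2 peaks were about equal. Between peaks, the first linker fell to 0.876 in the insert and 0.825 in the host, and the third to 1.10 and 0.931. The mean trough of the promoter was 0.289 at -70 bp in the insert and 0.165 at -60 bp in the host. Upstream, the -1 peak of the mean profile stood at 0.878 in the insert, at -200 bp, and at 1.03 in the host, at -210 bp.

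Taken gene by gene over all genes, the flanking nucleosomes and the arrays of the insert had medians close to those of the host, but the classes of genes differed. The +1 peak had a median height of 1.49 in the insert and 1.59 in the host, and the -1 peak 1.53 in both. In the divergent pairs the +1 peak was lower in the insert, 1.38 against 1.65, and among all other genes the -1 peak was, 1.27 against 1.47. A higher +1 than -1 peak was found in 19 of 35 insert genes with both, against 52.2% of host genes. Following peaks 120 to 230 bp apart from the +1 nucleosome, 32 of 46 insert genes gave a chain of 5 nucleosomes, against 71.4% of host genes, and 8 of 46 gave only 1 or 2, against 10.7%. A chain of at least 3 was found in 38 of 46, against 89.3%. The spacing along such chains had a median of 168 bp over 38 insert genes (interquartile range 161.5 to 175.5 bp) and 164 bp over 3325 host genes (160 to 168 bp). All 14 host chromosomes had a shorter median spacing, from 163 to 165 bp. By class the median spacing was 171 against 164 bp in the host among divergent pairs, and 166 against 164 bp among the other genes. The spacing of the same host gene differed between YAC1 and another library by a median of 2 to 4 bp. The log2 ratio of peak to following linker over the first 3 peaks had a median of 1.07 in the insert and 1.08 in the host. In the divergent pairs it was 0.99 against 1.12, and among the other genes 1.10 against 1.06. The peak of the autocorrelation of the signal downstream of the start, a measure of regularity that needs no common phase, had a median of 0.211 in the insert and 0.199 in the host. It was at least 0.4 in 19 of 57 insert genes, against 22.1% of host genes, and under 0 in 16, against 22.5%. The regular and the irregular ends were thus both somewhat fuller in the insert.

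**Figure D2:**
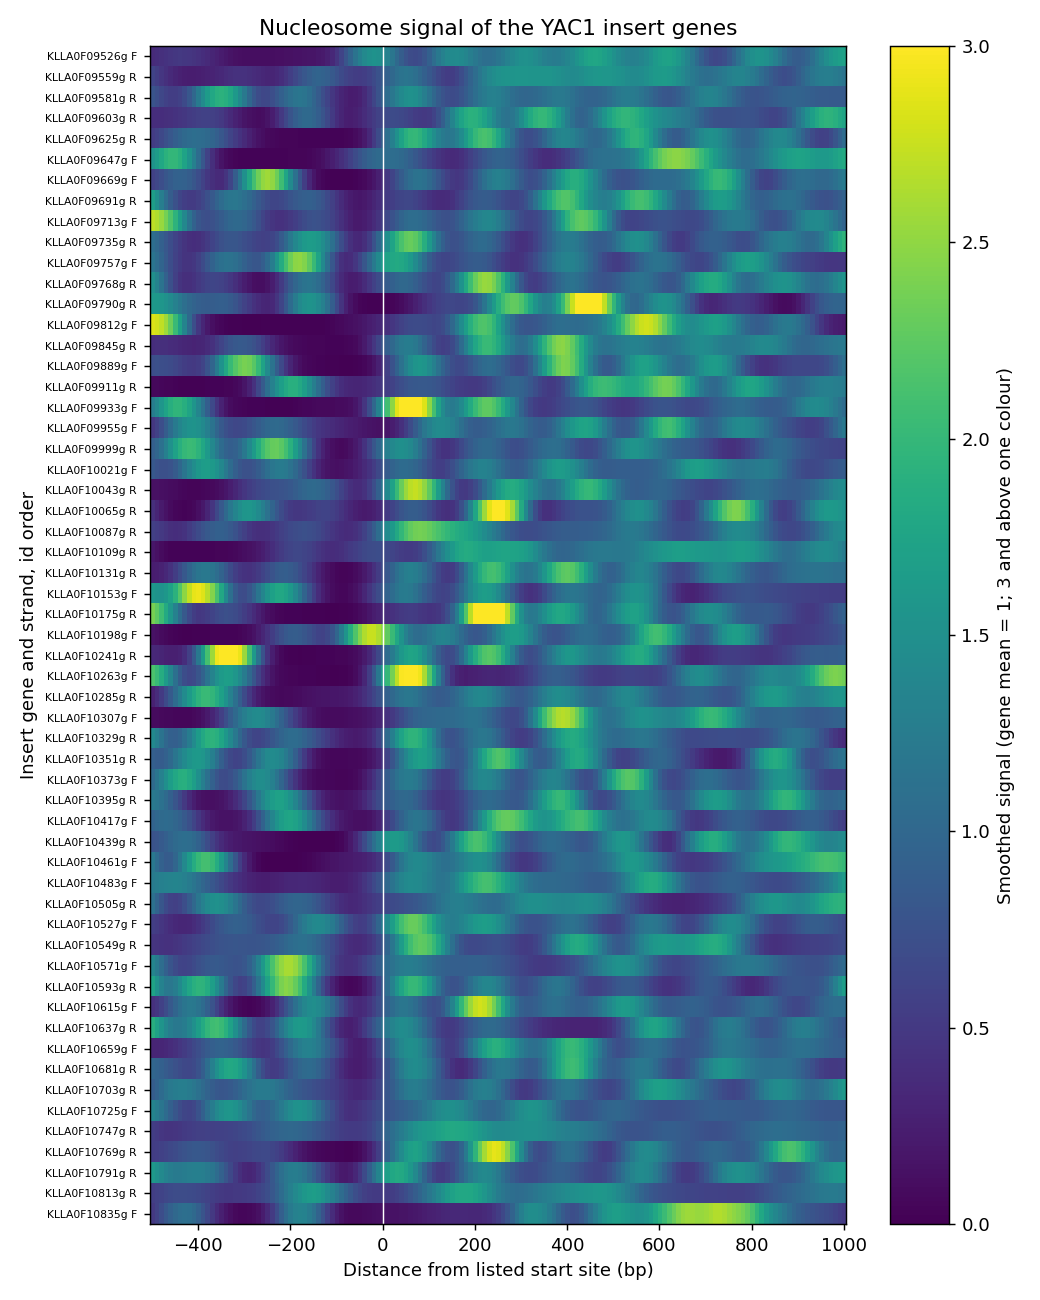
Smoothed signal of each of the 57 insert genes (rows, in identifier order with strand) by distance from the listed start (x axis, bp); colour is the level with the gene mean at 1, and 3 or more shares 1 colour. The dark band upstream of 0 is the depleted region, which is narrow in many rows and runs far upstream in others, up to 430 bp in width within the profile.

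In identifier order, the insert opened with genes whose lowest bin lay far upstream. KLLA0F09526g (F) had its lowest level of 0.113 at -250 bp, the end of the window, in a region that ended at -100 bp. That region was at least 410 bp wide, since it was cut at -500 bp, the end of the profile. Its first nucleosome after that gap was centred at -20 bp, and the array behind it was regular, with 5 peaks 158 bp apart. KLLA0F09559g (R) also bottomed at -250 bp, at 0.312, and its chain stopped after 2 peaks. The first nucleosome after the gap thus lay upstream of the listed start in both. KLLA0F09581g (R) looked like a usual promoter in position but not in depth: 0.230 at -70 bp, a region of 90 bp, a -1 peak at -180 bp and a +1 peak at 60 bp. KLLA0F09603g (R) again had its lowest level, 0.157, at -250 bp, with a nucleosome at -160 bp between that gap and the start. A lowest bin at the end of the window was found in 8 of 57 insert genes, against 4.55% of host genes.

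KLLA0F09625g (R) and KLLA0F09647g (F) are divergent neighbours and showed a wide, deep gap between them. KLLA0F09625g fell to 0.0265 in a region 290 bp wide and was followed by a +1 peak of 2.00 at 70 bp and 5 peaks at a spacing of 161 bp. KLLA0F09647g fell to 0.0285 in a region 300 bp wide that ended at -80 bp. Its highest level, 2.48, came only at 630 bp. Its lowest bin was at -250 bp, so a peak downstream of its start was out of reach of the +1 rule and its array was not followed. KLLA0F09669g (F) had a deep gap of 0.0150 and 180 bp, a -1 nucleosome of 2.57 and a lower +1 nucleosome of 1.14 at 80 bp.

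The next 4 genes form 2 closely spaced divergent pairs with shallow promoters. KLLA0F09691g (R) reached 0.183 and KLLA0F09713g (F) 0.215, in regions of 110 and 90 bp. Downstream, KLLA0F09691g had an autocorrelation peak of 0.492 at 160 bp while KLLA0F09713g had -0.0301. KLLA0F09735g (R) reached only 0.335 and KLLA0F09757g (F) only 0.360, and both regions were 40 bp wide, narrower than all but 0.399% of host regions. As the starts are 123 bp apart, the +1 peak of KLLA0F09735g and the -1 peak of KLLA0F09757g are the same nucleosome, at 2.31 and 2.50 of the 2 gene means. The nucleosome on the other flank was lower, 1.66 as the -1 peak of KLLA0F09735g and 1.82 as the +1 peak of KLLA0F09757g. Spacing within the chain was 166 bp in KLLA0F09735g and 192 bp, the widest in the insert, in KLLA0F09757g.

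KLLA0F09768g to KLLA0F09889g included several deep promoters. KLLA0F09768g (R) had its lowest level of 0.158 at -250 bp and a nucleosome at -160 bp, followed by the sharpest array of the insert, with a log2 peak-to-linker ratio of 1.64. KLLA0F09790g (R), whose start lies 1138 bp from that of KLLA0F09768g on the same strand, was depleted across its start: the region ran from -90 to 100 bp with a minimum of 0.0161. Its highest nucleosome, 3.51 at 450 bp, was among the highest in the insert. KLLA0F09812g (F) held the widest region of the 57 genes as measured within the profile, 430 bp with a minimum of 0.0146. No flanking peak on either side met the rule. KLLA0F09845g (R) fell to 0.0295 over 240 bp, with a low -1 peak of 0.845 and 5 nucleosomes 160 bp apart. KLLA0F09889g (F) fell to 0.00786 over 220 bp, deeper than all but 3.50% of host genes, and had 2 bins at 0. Its -1 peak of 2.38 was higher than its +1 peak of 1.59.

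KLLA0F09911g (R) and KLLA0F09933g (F) are divergent but 640 bp apart, and each had a gap of its own. KLLA0F09911g was shallow, 0.309 over 110 bp, with a low +1 peak of 0.836. KLLA0F09933g was deep, 0.0165 over 330 bp, and its highest nucleosome, 3.43, stood at 60 bp. That peak lay more than 250 bp from the lowest bin at -220 bp, so it did not count as a +1 peak by the rule. KLLA0F09955g (F) had its lowest level, 0.140, only 10 bp upstream of the start, and its +1 peak at 120 bp was correspondingly far downstream. KLLA0F09999g (R) and KLLA0F10021g (F), 801 bp apart, were of middle depth, 0.0771 and 0.125, with regions of 110 and 130 bp and +1 peaks at 40 and 50 bp. The spacing of 156 bp in KLLA0F10021g was the shortest of the insert.

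A run of reverse genes followed, most of them shallow. KLLA0F10043g fell to 0.365 in a region of 50 bp, followed by a +1 nucleosome of 2.73. KLLA0F10065g fell to 0.215 over 100 bp and had a low +1 peak of 0.883 before a nucleosome of 3.11 at 250 bp. KLLA0F10087g fell to 0.371 over 70 bp, with a +1 peak of 2.37 and no second peak within reach. KLLA0F10109g had its lowest level of 0.320 at -250 bp, in a depleted stretch that continued to -500 bp, the end of the profile, and no flanking peak by the rule. KLLA0F10043g, KLLA0F10065g and KLLA0F10087g lay between the 87.7 and 96.5 percentiles of host genes by lowest level, that is among the shallowest host promoters. KLLA0F10109g stood at the 94.6 percentile. Its value was read at the end of the window, so its gap may be deeper further upstream. KLLA0F10131g (R) ended the run with a deep promoter of 0.0395 over 140 bp and an autocorrelation peak of 0.493, and its divergent partner KLLA0F10153g (F) gave 0.0535 over 120 bp. Both had close to usual positions, with +1 peaks at 60 and 50 bp and -1 peaks at -210 and -220 bp.

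KLLA0F10175g (R) and KLLA0F10198g (F), divergent and 529 bp apart, differed most in measured lowest level among the matched divergent pairs. KLLA0F10175g fell to 0.00943 over 330 bp, from -290 to 30 bp, and then rose to the highest nucleosome of the 57 genes, 3.69 at 230 bp. KLLA0F10198g reached only 0.431, at the -250 bp end of its window, and carried a nucleosome of 2.75 at -30 bp, across its listed start. The gap of KLLA0F10198g from -500 to -250 bp is the same DNA as part of the gap of KLLA0F10175g, and its edge lay 250 bp upstream of the forward start. Relative to host genes the first stood at the 4.33 percentile and the second at the 97.7 percentile of the lowest level. The second value was read on the flank of the shared gap, whose minimum lay outside the window of KLLA0F10198g. It is therefore not a separate, shallower gap.

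KLLA0F10241g (R) and KLLA0F10263g (F) shared a gap that was almost the same from both sides. They fell to 0.0113 and 0.0110 over 240 and 230 bp, each had its +1 peak at 60 bp and its -1 peak at -340 bp. As the starts are 276 bp apart, the -1 nucleosome of one is the +1 nucleosome of the other, and the forward +1 nucleosome was the higher, at 3.19 against 1.75. KLLA0F10285g (R) and KLLA0F10307g (F), 657 bp apart, had separate gaps of 260 and 200 bp at 0.0690 and 0.0874. Neither had a +1 peak by the rule. KLLA0F10329g (R) was shallow, with 0.216 over 100 bp, a +1 peak of 1.95 at 70 bp and a spacing of 170 bp. KLLA0F10351g (R) and KLLA0F10373g (F), 183 bp apart, reached 0.0493 and 0.0427 over 170 and 180 bp, with +1 peaks at 80 and 60 bp. KLLA0F10395g (R) and KLLA0F10417g (F), 427 bp apart, both had regions of 120 bp at levels of 0.138 and 0.118. In the last pair the depth and width matched although the gaps are separate.

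KLLA0F10439g (R) and KLLA0F10461g (F), divergent neighbours, held the deepest levels of the insert. Their windows did not match by the rule given later, but a looser match placed their starts 356 bp apart. At that distance their lowest bins, at -140 and -220 bp, nearly coincide, and both genes would read 1 shared gap. Their lowest levels were 0.000252 and 0.000312, deeper than all but 0.306% of host genes, in regions of 320 and 300 bp. They had 9 and 10 bins at 0. KLLA0F10461g also had the lowest mean signal of the 57 genes, 0.671 in the unit of the table. From the reverse side a regular chain of 5 nucleosomes followed at 170 bp, with a +1 peak at 30 bp. From the forward side the lowest bin was at -220 bp, which put peaks beyond 30 bp out of reach of the +1 rule. A bin at 0 can be open DNA or DNA to which no reads were assigned, and these were not told apart. Bins at 0 occurred in 8 of 57 insert genes, against 6.01% of host genes.

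**Figure D3:**
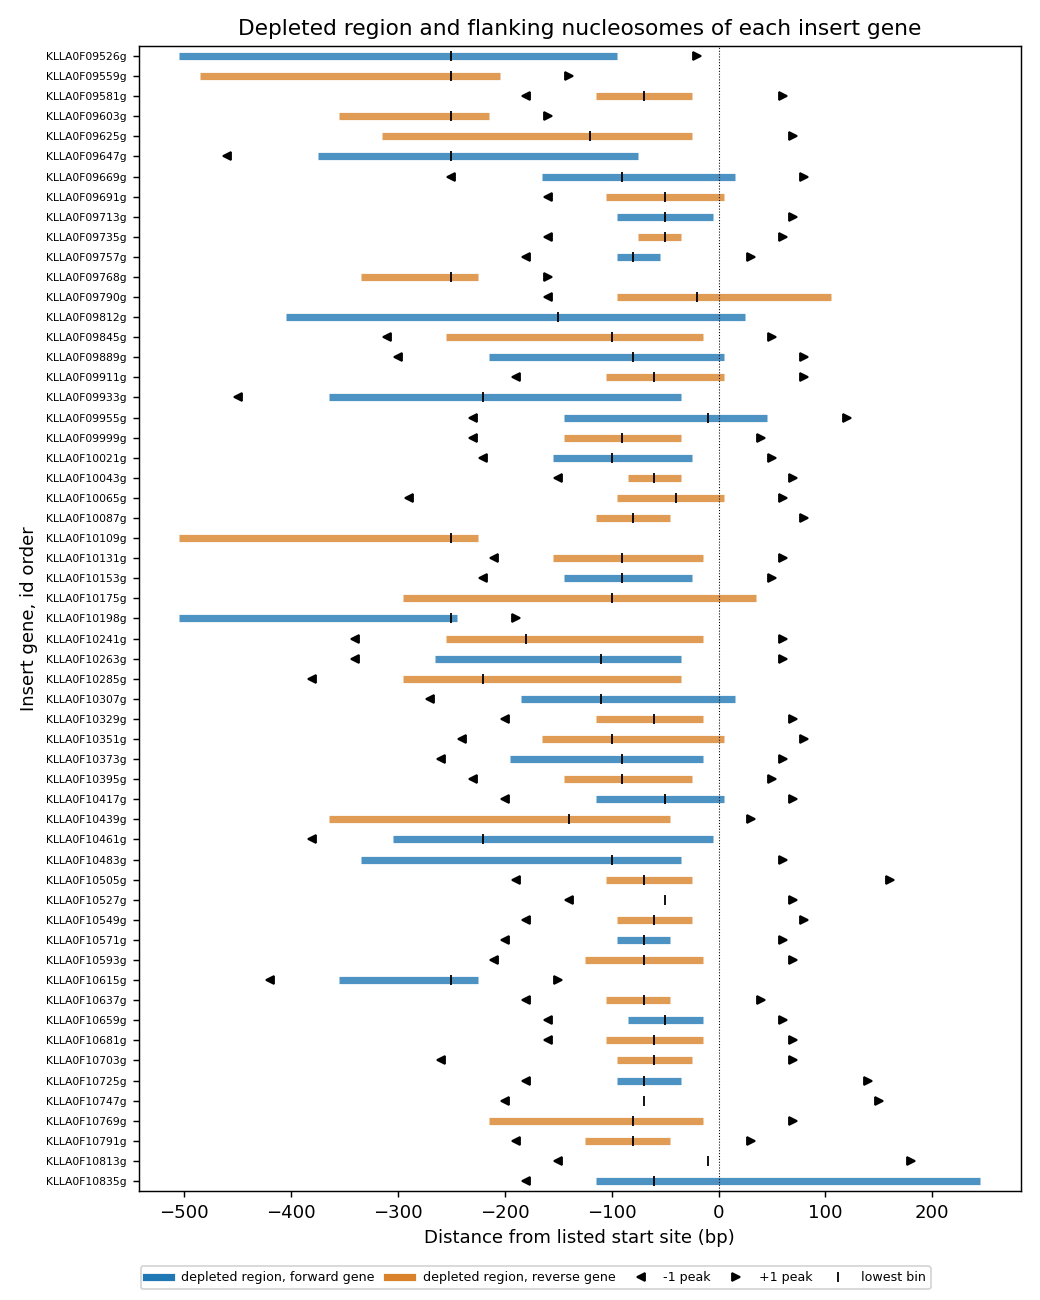
Depleted region (bars; blue forward, orange reverse), lowest bin (tick) and the -1 and +1 peaks (left and right triangles) of the 57 insert genes in identifier order, by distance from the listed start (x axis, bp). Most bars end upstream of the start, with a median edge of -30 bp, and 3 genes have no bar.

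KLLA0F10483g to KLLA0F10571g were mostly shallow. KLLA0F10483g (F) had a broad but shallow dip, 0.239 over 300 bp. KLLA0F10505g (R) fell to 0.339 over 80 bp, with its +1 peak as far as 160 bp into the gene. KLLA0F10527g (F), 502 bp from it, did not fall under 0.5 at all: its lowest level was 0.535, between a -1 peak at -140 bp and a +1 peak of 2.30 at 70 bp. Its array was nonetheless regular, with 5 peaks 174 bp apart and an autocorrelation peak of 0.438, so a filled promoter and a regular array occurred in 1 gene. KLLA0F10549g (R) and KLLA0F10571g (F), 122 bp apart, fell to 0.354 and 0.411 over 70 and 50 bp. The nucleosome of 2.61 upstream of KLLA0F10571g is the +1 nucleosome of KLLA0F10549g, and the autocorrelation peak of KLLA0F10571g, -0.236, was the lowest of the insert.

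KLLA0F10593g (R) was deep for its width, 0.0503 over 110 bp, between nucleosomes of 2.46 and 2.01 at -210 and 70 bp. KLLA0F10615g (F) had its lowest level of 0.180 at -250 bp, the end of the window, and a nucleosome at -150 bp. Only the looser match placed its start, 360 bp from that of its divergent neighbour KLLA0F10593g. At that distance its region, from -350 to -230 bp, covers the gap of KLLA0F10593g. The level of 0.180 would then be read on the flank of that gap. KLLA0F10637g (R), whose start lies 1726 bp from that of KLLA0F10615g in convergent orientation, fell to 0.255 over 60 bp. Its divergent partner KLLA0F10659g (F), 119 bp away, fell to 0.230 over 70 bp and had the more regular gene body, with an autocorrelation peak of 0.481 against 0.00879. KLLA0F10681g (R) gave 0.224 over 90 bp with a +1 peak at 70 bp and a spacing of 164 bp. KLLA0F10703g (R) and KLLA0F10725g (F), 114 bp apart, fell to 0.338 and 0.405 over 70 and 60 bp. All 5 of these genes, from KLLA0F10637g on, had narrow regions of 60 to 90 bp, and the 2 genes of each divergent pair read the same gap.

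Toward the end of the insert, 2 reverse genes had no depleted region. KLLA0F10747g had a lowest level of 0.506 and a +1 peak at 150 bp, and KLLA0F10813g a lowest level of 0.505 and a +1 peak at 180 bp. Both values lie just above the limit of 0.5. KLLA0F10198g, at 0.431, was the next lower gene and counts as depleted. Between them in order, KLLA0F10769g (R) was deep, 0.0195 over 200 bp, with 5 sharp peaks 163 bp apart, and KLLA0F10791g (R) shallow, 0.202 over 80 bp, with a spacing of 182 bp and an autocorrelation peak of 0.551. KLLA0F10835g (F) was depleted from -110 to 240 bp, across its start and into the gene, with a minimum of 0.0708 and its highest nucleosome, 2.66, at 730 bp. KLLA0F10857g (F) followed with the 114 empty bins given above. Its highest scaled level was 8.60 at -310 bp, set by the few bins above 0, and its profile was not read further.

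**Figure D4:**
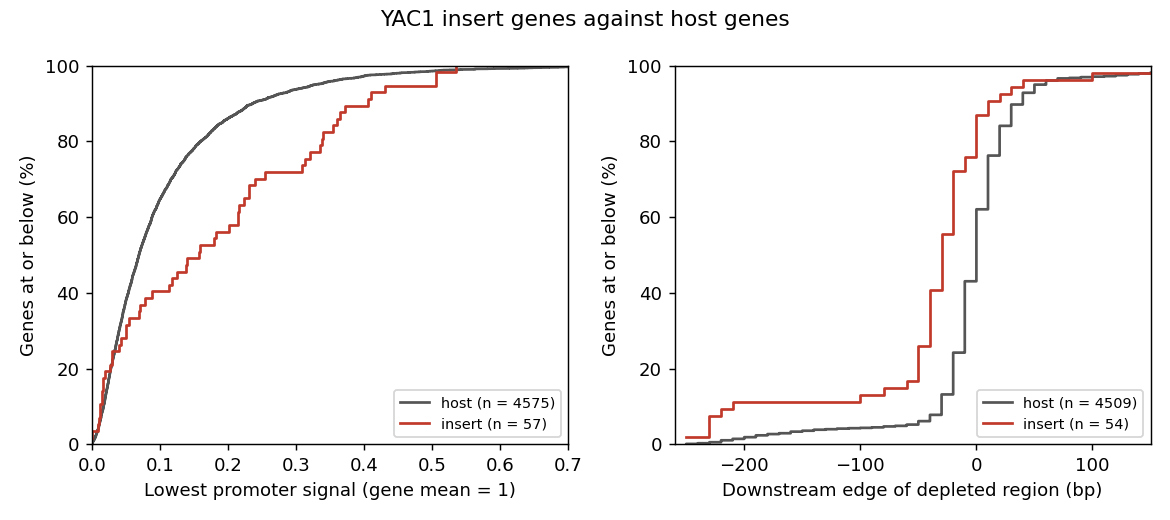
Cumulative share of genes (y axis, %) by lowest promoter level (left, gene mean at 1) and by downstream edge of the depleted region (right, bp from the listed start) for insert (red) and host (grey) genes of YAC1. The insert curve lies somewhat above the host curve at the deepest levels and is below it by a level of 0.05. The insert edge lies upstream of the host edge over most of its range.

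Because the windows of neighbouring genes overlap, the distance between their starts could be read from the signal itself, without coordinates. Windows were placed on 1 strand and shifted until at least 15 bins held the same values, with a mean difference of at most 0.05 of the mean and a correlation of at least 0.98. Of the 57 neighbouring pairs in identifier order, 17 matched, and of the 1596 pairs that are not neighbours, 0 matched. In the host, of 1496 neighbours matched in YAC1, 1413 to 1484 also matched in each other library, and all of these gave the same distance within 10 bp. Of the 17 insert matches, 15 are divergent pairs (a reverse gene followed by a forward gene), 1 is convergent and 1 in tandem. The insert had 20 divergent neighbours in all, 35.1% of its neighbouring pairs, against 26.0% in the host. Members of such a pair read the same DNA, so the 30 genes concerned are not independent of each other. In 9 of the 15 pairs the lowest bins seen from both sides lay within 20 bp of each other. In the other 6, all with starts at least 427 bp apart, the lowest bins did not coincide. Among these, KLLA0F10175g and KLLA0F10198g share a gap whose minimum lies outside the window of the forward gene.

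Shallow promoters of the insert included nearly all genes of its closely spaced divergent pairs. At start distances up to 150 bp there were 5 pairs, at 97, 114, 119, 122 and 123 bp, and the lowest levels of their 10 genes ran from 0.183 to 0.411 with a median of 0.336. The 444 host pairs at such distances had a median of 0.0654 over 888 genes. Under 0.2 lay 1 of the 10 insert genes and 91.3% of these host genes, and 1.58% of these host genes were as shallow as the insert median or shallower. The median region was 65 bp wide in the insert and 130 bp in the host. From 150 to 300 bp, the 3 insert pairs (6 genes) had a median of 0.0411, against 0.0247 over 350 host genes, and all 6 lay under 0.2. At larger distances the 7 pairs (14 genes) had a median of 0.103, against 0.0814 over 476 host genes. The gap between insert and host was thus largest where the starts were closest.

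Since the +1 nucleosomes of the insert sit closer to the starts, the same pairs were also compared by the distance between their +1 peaks, a choice made after the values were seen. With 200 to 270 bp between the +1 peaks, 3 insert pairs had a median lowest level of 0.345 over 6 genes, between 0.230 and 0.411, and 135 host pairs a median of 0.115 over 270 genes. None of the 6 insert genes lay under 0.2, against 80.7% of these host genes. With 270 to 400 bp, 4 insert pairs had a median of 0.0460 over 8 genes and 336 host pairs one of 0.0399 over 672 genes. Here 6 of the 8 insert genes lay under 0.2, against 99.3% of these host genes. The other 2 were KLLA0F10703g and KLLA0F10725g, at 0.338 and 0.405, whose +1 peaks are 324 bp apart. Narrower smoothing brought the closely spaced pairs nearer to the host without closing the difference: with an SD of 10 bp their medians were 0.216 in the insert and 0.0426 in the host.

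**Figure D5:**
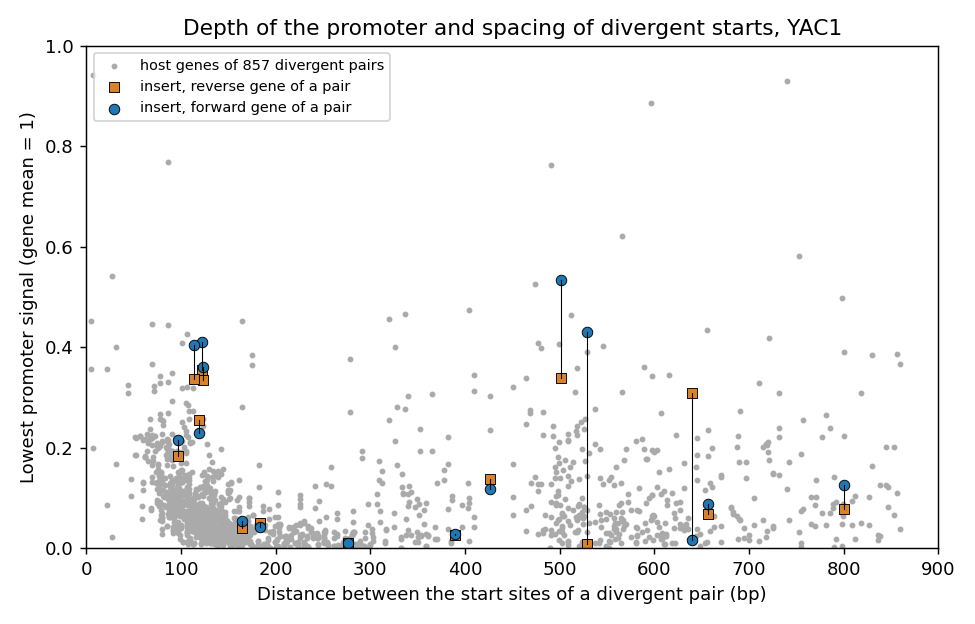
Lowest promoter level (y axis, gene mean at 1) by the distance between the starts of divergent pairs (x axis, bp) for 15 insert pairs (squares reverse, circles forward, joined by a line) and the genes of 857 host pairs (grey). The 5 insert pairs under 150 bp lie between 0.183 and 0.411, above most host genes at the same distance, and the 3 pairs from 150 to 300 bp lie under 0.06.

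Closely spaced divergent pairs were also measured in the *D. hansenii* inserts, and were shallower than the host there as well. In YAC6, 6 pairs had a median lowest level of 0.411 over 12 genes, against 0.0673 in its host, and in YAC7, 10 pairs had a median of 0.271 over 20 genes, against 0.108. In YAC7 that median was no higher than the median of the whole insert, also 0.271, and the width was 120 bp in insert and host. In both strains, single genes reached as low as 0.0257 and 0.0222, so the range was wider than in YAC1. YAC2 and YAC3 had 0 such pairs under the same criteria. These are single libraries of different inserts, and no test was made.

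By median over genes, forward genes of the insert had deeper and wider depleted regions than reverse genes, a difference that the host did not show. The mean profiles did not have this order. Their trough was 0.320 in forward and 0.258 in reverse insert genes, and the run under 0.5 was 90 bp wide on both strands. The median lowest level was 0.116 over 24 forward genes (interquartile range 0.0255 to 0.232) and 0.202 over 33 reverse genes (0.0493 to 0.320), against 0.0684 and 0.0691 in the host. The strands overlapped over nearly their whole ranges, 0.000312 to 0.535 and 0.000252 to 0.506. The median width was 190 bp on the forward and 110 bp on the reverse strand, against 160 and 150 bp in the host. Median heights of the -1 peak were 1.68 and 1.36, and of the +1 peak 1.44 and 1.58, so the higher flank was upstream in forward genes and downstream in reverse genes. Of the genes with both peaks, the +1 peak was the higher in 5 of 14 forward and 14 of 21 reverse genes. The strands are not independent in this. Where a divergent pair shares a gap, the -1 nucleosome of one gene is the +1 nucleosome of the other. Such a pair enters both counts with the same nucleosomes. Positions did not differ much: the downstream edge had a median of -30 bp on both strands and the +1 peak medians of 60 and 65 bp. The median spacing was 166 bp on the forward and 170 bp on the reverse strand, and the median autocorrelation peak 0.117 and 0.221. The mean lowest levels were 0.160 on the forward and 0.195 on the reverse strand, so the difference was -0.0345 in means and -0.0862 in medians. In the 9 divergent pairs whose lowest bins coincide, the forward minus reverse difference ran from -0.0247 to 0.0674, and in the other 6 pairs from -0.292 to 0.422. The value of 0.422 is that of KLLA0F10175g and KLLA0F10198g, whose shared gap is cut by the window of the forward gene. In 10 of the 15 pairs the reverse gene was the lower.

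Along the insert the values had no simple course. The first 28 genes, to KLLA0F10175g, had a median lowest level of 0.133 and the remaining 29 one of 0.202, with a median downstream edge of -30 bp in both. The median width was 140 bp in the first and 125 bp in the second set, and the median spacing 166 and 170 bp.

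Set beside the other inserts, YAC1 had one of the smaller insert minus host differences in median lowest level. At the main settings it had the largest shift of the downstream edge. The median lowest level of the insert exceeded that of its own host by 0.0883 in YAC1. The same difference was 0.118 and 0.0778 in the other *K. lactis* inserts, YAC2 and YAC3, and 0.167 and 0.152 in YAC6 and YAC7. The downstream edge differed by -30 bp in YAC1, -20 bp in YAC2 and YAC3, 0 bp in YAC6 and 10 bp in YAC7, and the +1 position by -20 bp in all 3 *K. lactis* inserts, -10 bp in YAC6 and 0 bp in YAC7. These positions share the doubt about the origin of the listed starts. The median edge itself was -30 bp in both the YAC1 and the YAC2 insert, with host medians of 0 and -10 bp. With smoothing of 30 bp SD the edge difference in YAC1 was -20 bp. The median height of the +1 peak fell short of the host by only 0.104 in YAC1, against 0.182 to 0.479 in the other 4, and the peak-to-linker ratio by 0.01 on the log2 scale, against 0.16 to 0.23. In spacing YAC1 was not the nearest to its host: the difference was 4 bp, against 1 bp in YAC2, 13 bp in YAC3, 3 bp in YAC6 and 2.5 bp in YAC7. These 5 values per measure come from 1 library each, so they are given side by side without a test.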

How the data were processed

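Mononucleosomal DNA from spheroplasts digested with micrococcal nuclease was sequenced from 1 library of each of 5 strains. Per the file headers, each gene has 151 deposited signal values, 1 for every 10 bp between -500 and +1000 bp of its start. In YAC1, insert and host, 100% of the authors' signal values were whole multiples of a single step, within 0.02 steps. The mean is 960.3 steps in the insert and 1739 in the host table, and depth in reads is unknown. CASAVA 1.7.0 is named in the submitters' processing notes. No label or header used here names an aligner or a build.

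Each gene was scaled to its mean, smoothed and measured with numpy 2.4.6 and scipy 1.17.1. Genes with a mean under 10% of the table's median were left out. Peak-to-linker ratios carry a pseudocount of 0.05. Host neighbours follow a gene table of *S. cerevisiae* R64, which held 5259 of 5264 host identifiers. All 58 insert genes were named, in identifier order. Members and measures were chosen with earlier results of these data known, and distance classes after the values were seen. The +1 position, the spacing, the order of widths and the match of neighbours were tested on simulated data, and the other measures were not. With 1 library per strain no p-value was computed. The alternatives were smoothing, scaling, thresholds, windows, the host set, the filter and means.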

Additional observations from a re-analysis of the deposited data

How the results depend on the processing

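Across 13 insert-host or strand differences, 131 alternative values were computed. An interval over genes was the yardstick for a move, but many genes read shared DNA and the intervals are wide (-50 to 40 bp for the width), so lying within one says little about stability. The share of genes with a depleted region, insert minus host, was -3.82 percentage points and turned to 0.984 points with smoothing of 10 bp SD and to 0.743 points with a threshold of 0.6, the cause of which was not tested. The +1 position differed by -31.2 bp in means and -20 bp in medians. The width difference ranged from -30 to 20 bp and turned positive with only the forward gene of each divergent pair. The -1 position, -1 height, peak-to-linker ratio and autocorrelation differences also changed sign between settings and stayed near 0. The depth difference ranged from 0.0646 to 0.128, the downstream edge from -38.6 to -20 bp, spacing from 2 to 5.5 bp, the +1 height from -0.186 to -0.0901, and the strand difference in depth from -0.135 to -0.0327. A looser match gave 17 divergent pairs in place of 15, but matched 5 non-neighbours. These settings on windows, pairs and matches were chosen after seeing the data. No paired analysis was possible because each strain gave 1 library without a replicate number. Read depth is unknown, so the counting error of single genes could not be given.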
